A study of Mus musculus with 4 samples.

Results

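The CXC chemokine genes *Cxcl9*, *Cxcl10*, *Cxcl11*, *Cxcl1*, *Cxcl2*, *Cxcl3*, *Cxcl5*, *Cxcl12*, *Cxcl14* and *Cxcl16* were examined in J774 cells treated with proteasome inhibitors. These 10 genes were chosen by name, as 3 ligands of the receptor CXCR3, 4 neutrophil-attracting chemokines and 3 other chemokines. A probe could be named for 9 of them, out of 20140 genes with a named probe, and these 9 genes had 11 probes. *Cxcl11* had no probe that could be named through a transcript accession and was not analysed here. J774.1 is an established mouse monocyte-macrophage line, and no genetic change to it is named in the labels. Its RNA was measured on 4 single-color arrays. The cells had been kept 4 hours in the solvent DMSO or in MG132, epoxomicin or ONX0914 at 1 μM. MG132 is named as a proteasome inhibitor, epoxomicin as an inhibitor of the 20S proteasome and ONX0914 as an inhibitor of the catalytic subunits β5 and β5i. The treatment label of the last array reads ONX-0912, while its treatment protocol and the paper name ONX0914, the name used here. Each condition is 1 culture on 1 array, so no difference has a replicate check and none has a P value.

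CXC chemokines are small secreted proteins that guide white blood cells through receptors on their surface. CXCL9, CXCL10 and CXCL11 bind CXCR3 on activated T cells and natural killer cells, and their genes are known for their induction by interferons. CXCL1, CXCL2, CXCL3 and CXCL5 draw neutrophils through CXCR2, and their genes are known for their induction through NF-kB in activated macrophages. CXCL12 binds CXCR4 and retains cells in the bone marrow, CXCL14 is made at rest by epithelia, and CXCL16 is made as a membrane protein that binds CXCR6 and can be shed by proteases.

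The sequences upstream of the genes were examined for the binding motifs of factors downstream of interferons and NF-kB, because these factors are known to act on this family. RefSeq (GRCm38.p6) gave a window from 250 bases before to 50 bases after the start for 7 of the 10 genes, which were *Cxcl9*, *Cxcl10*, *Cxcl1*, *Cxcl2*, *Cxcl3*, *Cxcl12* and *Cxcl14*. The 250 bases before the start are printed for both CXCR3 ligands and for 3 neutrophil-attracting genes, 5′ to 3′ on the strand of the gene, to show how the promoters of the genes that differed on the arrays compare with those of near relatives. Capitals mark matches on either strand to the core of the interferon-stimulated response element (ISRE, GAAANNGAA) or to the kappaB consensus, and N is any base. The regions are chr5:92328080-92328329 (minus strand) for *Cxcl9*, chr5:92348890-92349139 (minus strand) for *Cxcl10*, chr5:90903649-90903898 (plus strand) for *Cxcl2*, chr5:90890995-90891244 (plus strand) for *Cxcl1* and chr5:90785851-90786100 (plus strand) for *Cxcl3*.
Cxcl9: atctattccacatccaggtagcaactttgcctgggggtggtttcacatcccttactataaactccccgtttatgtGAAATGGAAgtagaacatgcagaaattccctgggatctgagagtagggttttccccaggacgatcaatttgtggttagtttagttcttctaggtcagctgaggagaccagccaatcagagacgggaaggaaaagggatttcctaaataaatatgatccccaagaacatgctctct
Cxcl10: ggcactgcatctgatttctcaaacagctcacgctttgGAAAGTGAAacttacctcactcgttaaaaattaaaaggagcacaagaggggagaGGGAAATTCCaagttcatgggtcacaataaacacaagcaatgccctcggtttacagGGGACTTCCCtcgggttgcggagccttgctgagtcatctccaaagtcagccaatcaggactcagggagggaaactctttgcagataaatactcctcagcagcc
Cxcl2: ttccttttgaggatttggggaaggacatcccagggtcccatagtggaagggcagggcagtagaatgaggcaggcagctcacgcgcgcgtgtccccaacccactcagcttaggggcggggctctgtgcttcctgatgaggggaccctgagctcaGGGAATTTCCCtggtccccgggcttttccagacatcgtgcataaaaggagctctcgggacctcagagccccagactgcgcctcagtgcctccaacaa
Cxcl1: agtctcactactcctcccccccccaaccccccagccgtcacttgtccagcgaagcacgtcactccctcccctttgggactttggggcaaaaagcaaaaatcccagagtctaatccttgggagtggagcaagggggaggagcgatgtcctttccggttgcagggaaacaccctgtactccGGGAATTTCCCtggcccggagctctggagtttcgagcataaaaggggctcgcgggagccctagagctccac
Cxcl3: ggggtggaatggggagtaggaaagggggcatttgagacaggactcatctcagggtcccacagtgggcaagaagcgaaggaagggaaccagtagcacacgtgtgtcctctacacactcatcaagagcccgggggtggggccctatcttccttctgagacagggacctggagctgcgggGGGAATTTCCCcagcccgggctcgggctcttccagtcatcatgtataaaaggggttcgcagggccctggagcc
Positions are counted from the start of the gene, and the first base of a match on the strand of the gene is given. *Cxcl9* held 1 match to the ISRE core, at −175, and none to the kappaB consensus. *Cxcl10* held 1 match to the ISRE core, at −213, and 2 matches to the kappaB consensus, at −159 and −103. Among all 32851 windows of the same length, the ISRE core was found in 8.56% and the kappaB consensus in 4.51%. *Cxcl2*, *Cxcl1* and *Cxcl3* had no ISRE core, and each held the same pair of overlapping kappaB matches, starting at −97, −71 and −73 and read from opposite strands. Matches to the AP-1 motif (TGANTCA, in 7.81% of windows) were found at −74 in *Cxcl10* and at 32 in *Cxcl9*. The gamma-activated site (GAS, TTCNNNGAA, in 8.30% of windows) matched in *Cxcl14* at −191 and in no other of the 7 windows, and *Cxcl14* also held an ISRE core at −172. *Cxcl12* held none of these motifs. Exact TATAAA (in 13.6% of windows) was found at −195 in *Cxcl9* and at −30 in *Cxcl3*. A match is a description of the letters only, and binding was not measured.

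Each array held 43020 spots that were not controls, and the scanner software called between 60.3% and 63.1% of them well above background. Signals are the brightness of a spot after subtraction of the background within its array. Differences are between log2 signals from which the 75th percentile of the array, a signal between 1448 and 1669, was subtracted. A difference of at least 2-fold (1 on the log2 scale) was counted as higher or lower. Errors are the software's own estimate of 1 SD per spot, combined over the 2 arrays of a difference, and they cover the reading of an array and not the spread between cultures. Where the dimmer signal of a pair was not well above background, the difference is a bound, computed from the lowest detected signal of that array. This lowest signal was 14.7 for DMSO, 17.8 for MG132, 20.3 for epoxomicin and 19.3 for ONX0914. A dimmer signal that lay above it kept its own value. Of 8 macrophage markers, 7 had a probe and all 7 were well above background on every array, including *Adgre1*, *Csf1r* and *Itgam*. The B cell markers *Ms4a1* and *Cd79a* were not above background on any array. Of 4 T cell markers, *Cd3e* and *Cd4* were above background on every array and *Cd3g* and *Cd8a* on none. *Elane* and *Camp* of 3 neutrophil markers with a probe, and the endothelial markers *Pecam1* and *Cdh5*, were also above background on every array. Of 3 epithelial markers, *Krt8* was above background with MG132 and epoxomicin and *Krt18* with epoxomicin, at signals up to 121. Of 3 fibroblast markers, *Pdgfra* was above background with DMSO and epoxomicin only, at signals up to 38.6, and *Col1a1* and *Col3a1* on no array. The part of these genes' sources in the chemokine values was not tested.

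Both CXCR3 ligands with a probe were higher with every inhibitor. Of the 4 genes of the neutrophil-attracting group, *Cxcl2* was the one with a signal. *Cxcl16* was at least 2-fold higher with MG132 and epoxomicin only, and these calls depended on the background correction. Of the 9 genes with a probe, 3 were well above background on all 4 arrays, which were *Cxcl10*, *Cxcl2* and *Cxcl16*. *Cxcl9* was above background on the inhibitor arrays only and *Cxcl14* on the DMSO array only. The other 4 genes, *Cxcl1*, *Cxcl3*, *Cxcl5* and *Cxcl12*, were above background on no array. This left 5 genes to compare with each inhibitor. With MG132, 4 of the 5 were at least 2-fold higher, against 7.25% of all 13773 genes compared. With epoxomicin it was the same number, against 8.49% of 13868 genes. With ONX0914 it was 3 of 5, against 3.27% of 13789 genes. *Cxcl9*, *Cxcl10* and *Cxcl2* were higher with all 3 inhibitors, against 2.02% of 13459 genes. No member was counted as at least 2-fold lower with any inhibitor, where the share of all genes was 3.69% for MG132, 4.41% for epoxomicin and 1.4% for ONX0914. The inhibitors share 1 DMSO array as their control, and any deviation of it enters each comparison. With all 3 inhibitors, 0.996% of genes were at least 2-fold lower. *Cxcl14* was detected with DMSO only and has bounds close to 0, so a lower level of 2-fold or more is possible, and its difference was −1.88, −2.10 and −2.05 with MG132, epoxomicin and ONX0914 in the log2 table of the authors. *Cxcl9* entered through the inhibitor arrays alone, and a gene that enters in this way can only be higher. More RNA per cell and more cells that make it cannot be told apart on these arrays.

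**Figure D1:**
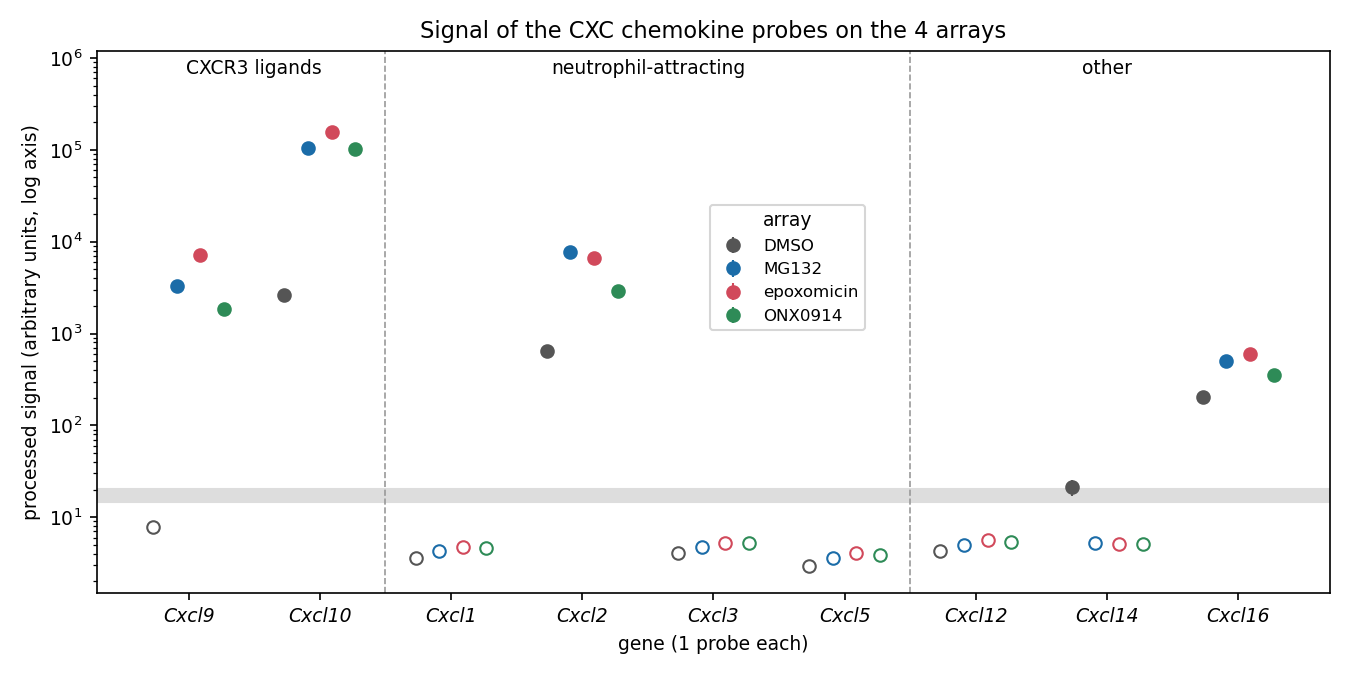
Processed signal (log axis) of the probe that represents each of the 9 CXC chemokine genes on the DMSO, MG132, epoxomicin and ONX0914 arrays, with the software's error of 1 SD where it exceeds the symbol. Open circles are signals not well above background and the gray band spans the lowest detected signals of the arrays (14.7 to 20.3). *Cxcl9*, *Cxcl10*, *Cxcl2* and *Cxcl16* lie above their DMSO signal on every inhibitor array, and *Cxcl1*, *Cxcl3*, *Cxcl5* and *Cxcl12* stay under the band.

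*Cxcl9* (NM_008599), which encodes a CXCR3 ligand induced above all by interferon-γ, was not well above background with DMSO, at a signal of 7.89. MG132 gave a signal of 3294, epoxomicin one of 7176 and ONX0914 one of 1849. The gene was thus detected on the 3 inhibitor arrays and not on the control array. Relative to DMSO, the signal with MG132 was at least 255-fold higher. For epoxomicin the bound was at least 482-fold, and for ONX0914 at least 129-fold. A second probe of the same transcript had a signal of 11.0 with DMSO, again not above background, and of 1793, 3717 and 946 with MG132, epoxomicin and ONX0914. The MG132 bound from this probe was at least 139-fold, the epoxomicin bound at least 249-fold and the ONX0914 bound at least 66.1-fold, so both probes placed epoxomicin highest and ONX0914 lowest. The size of these bounds depended on the treatment of the background. Normexp correction models spot and background brightness together. Under normexp fitted to all spots, the differences on the log2 scale were 3.90, 4.80 and 2.97 in place of 7.99, 8.91 and 7.01, and with outlier spots left out of the fit they were 5.54, 6.42 and 4.59.

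*Cxcl10* (NM_021274), which encodes a CXCR3 ligand induced by interferons of type I and type II, had a signal of 2622 in control cells. The MG132 array read 104018, the epoxomicin array 155605 and the ONX0914 array 102756. Unlike *Cxcl9*, *Cxcl10* was thus well above background in control cells, and every inhibitor array lay far above it. It was 45.1-fold higher with MG132, with a log2 difference of 5.49 ± 0.20 (software error, 1 array each). It was 58.5-fold higher with epoxomicin, with a log2 difference of 5.87 ± 0.20. It was 40.3-fold higher with ONX0914, with a log2 difference of 5.33 ± 0.20. Among the genes measured on both arrays, *Cxcl10* ranked 7 of 13004 with MG132, 5 of 13040 with epoxomicin and 2 of 12991 with ONX0914. Over 14 other ways of processing, its difference ranged from 5.31 to 5.70 with MG132, from 5.79 to 6.04 with epoxomicin and from 5.26 to 5.36 with ONX0914. The promoter printed above for *Cxcl10* is the only one of the 7 windows with matches to both the ISRE core and the kappaB consensus. The share of all windows with both was not computed, and a link between these matches and the signal was not tested.

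Of the 4 genes of the neutrophil-attracting group, only *Cxcl2* gave a signal above background. *Cxcl2* (NM_009140), known as MIP-2 and made rapidly by activated macrophages, had a signal of 652 in control cells, and it read 7711 in the MG132 array, 6613 in the epoxomicin array and 2919 in the ONX0914 array. All inhibitor arrays were above the control array, with MG132 highest and ONX0914 lowest. The increase was 13.4-fold for MG132 (log2 difference 3.75 ± 0.20) and 10.0-fold for epoxomicin (3.32 ± 0.20). For ONX0914 it was 4.60-fold (2.20 ± 0.20). *Cxcl2* ranked 31 of 13004 genes with MG132, 73 of 13040 with epoxomicin and 57 of 12991 with ONX0914. The signals of *Cxcl1*, a close relative also known as KC, were 3.55, 4.30, 4.70 and 4.66 in the order DMSO, MG132, epoxomicin and ONX0914. *Cxcl3* had 4.09, 4.76, 5.26 and 5.18, and *Cxcl5*, a neutrophil attractant known from epithelia, had 2.97, 3.55, 4.08 and 3.87. None of these signals was well above background, so no fold is given for these 3 genes. *Cxcl2* shares its kappaB matches with *Cxcl1* and *Cxcl3*, whose signals are too faint to show whether they differed. The part of these matches in the difference of *Cxcl2* was not tested.

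*Cxcl16* (NM_023158), whose product also takes up oxidized lipoprotein in macrophages, had a signal of 203 in control cells, 501 after MG132, 599 after epoxomicin and 356 after ONX0914. The order of the arrays was that of *Cxcl9*, with smaller differences. It was 2.80-fold higher with MG132 (log2 difference 1.49 ± 0.21) and 2.91-fold higher with epoxomicin (1.54 ± 0.21). With ONX0914 the difference was 0.85 ± 0.21 on the log2 scale (1.80-fold), under the 2-fold threshold. These values depended on the background correction. Under normexp with all spots they were 0.41, 0.42 and −0.08, and without outlier spots in the fit they were 1.18, 1.18 and 0.68. *Cxcl14* (NM_019568) was faintly above background with DMSO, at a signal of 21.3, and not above background with MG132 (5.21), epoxomicin (5.15) or ONX0914 (5.09). Because 21.3 lies close to the lowest detectable signal, the bounds were only −0.07, −0.08 and −0.10 on the log2 scale. Both probes of *Cxcl12* were not above background on any array, the one with signals of 4.28, 5.04, 5.59 and 5.43 and the other with 3.31, 4.04, 4.75 and 4.36 in the order DMSO, MG132, epoxomicin and ONX0914.

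**Figure D2:**
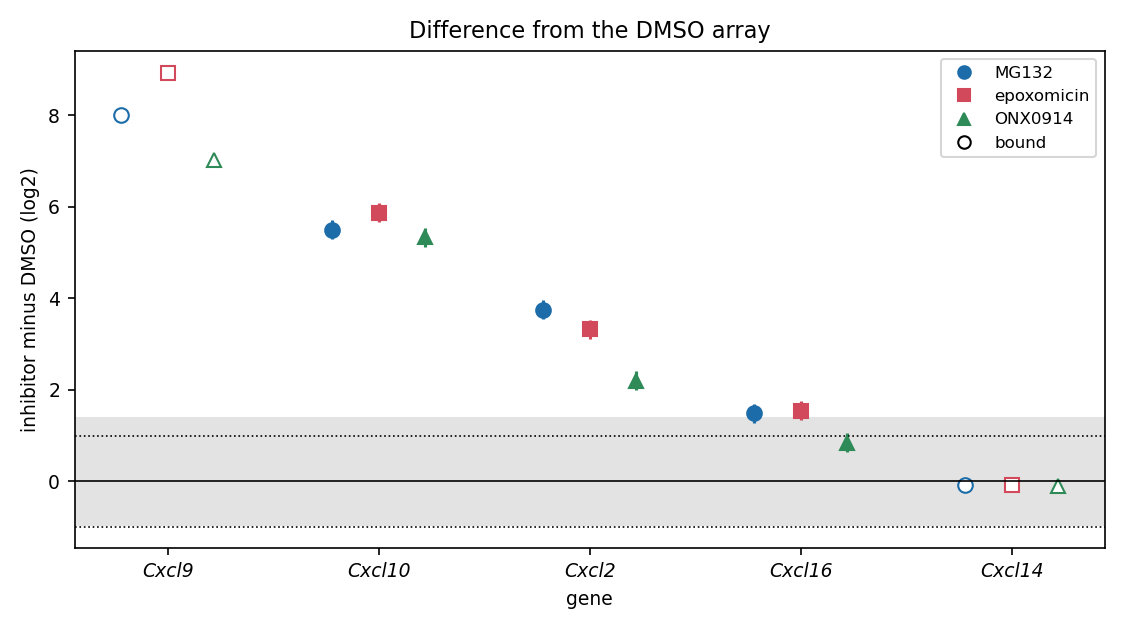
Difference from the DMSO array (log2) of the 5 CXC chemokine genes above background on at least 1 array, with MG132, epoxomicin and ONX0914. Open symbols are bounds, bars are the software's error, and the shading is the widest range from the 5th to the 95th percentile of all genes over the 3 comparisons (−0.96 to 1.38). *Cxcl9*, *Cxcl10* and *Cxcl2* lie above the shading with every inhibitor, while *Cxcl16* is near its upper edge, and under normexp with all spots its ONX0914 value is −0.08.

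The inhibitor arrays were then compared with each other, all at 1 μM and 4 hours, for the 4 genes that were above background on each of them. This gave 12 comparisons, of which 3 reached 2-fold. With 1 array per inhibitor none of them has a P value. Epoxomicin exceeded ONX0914 for all 4 genes. The log2 difference was 1.90 ± 0.20 for *Cxcl9*, above 99.4% of the 12857 genes measured on both arrays. It was 1.12 ± 0.20 for *Cxcl2*, above 97.3% of those genes. For *Cxcl10* it was 0.54 ± 0.20, above 88.9% of those genes, and for *Cxcl16* 0.69 ± 0.21, above 92.8%. At least 2-fold higher signals with epoxomicin than with ONX0914 were found for 4.42% of all genes compared, and 1.55% were lower.

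MG132 also exceeded ONX0914, with *Cxcl2* furthest apart. The log2 difference of ONX0914 from MG132 was −1.55 ± 0.20 for *Cxcl2*, and only 0.552% of 12854 genes had a lower value. It was −0.98 ± 0.20 for *Cxcl9* and −0.64 ± 0.21 for *Cxcl16*, with 2.29% and 6.23% of those genes lower. For *Cxcl10* the difference was −0.16 ± 0.20, which is within the software error. MG132 lay above ONX0914 for *Cxcl10* in all 14 other ways of processing, but these use the same arrays and are not replicates. The interval of ± 0.20 does not show that ONX0914 and MG132 act alike on *Cxcl10*. At least 2-fold lower signals with ONX0914 than with MG132 were found for 3.04% of all genes compared, and 1.08% were higher.

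Between epoxomicin and MG132, the genes differed in sign. The log2 difference of epoxomicin from MG132 was 0.92 ± 0.20 for *Cxcl9*, above 99.6% of 13040 genes, and 0.38 ± 0.20 for *Cxcl10*, above 95.9%. For *Cxcl2* it was −0.43 ± 0.20, which only 2.92% of those genes fell below. *Cxcl16* differed by 0.05 ± 0.20, less than the software error. No member was 2-fold apart between these arrays, where 0.814% of all genes were higher and 0.704% lower with epoxomicin.

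**Figure D3:**
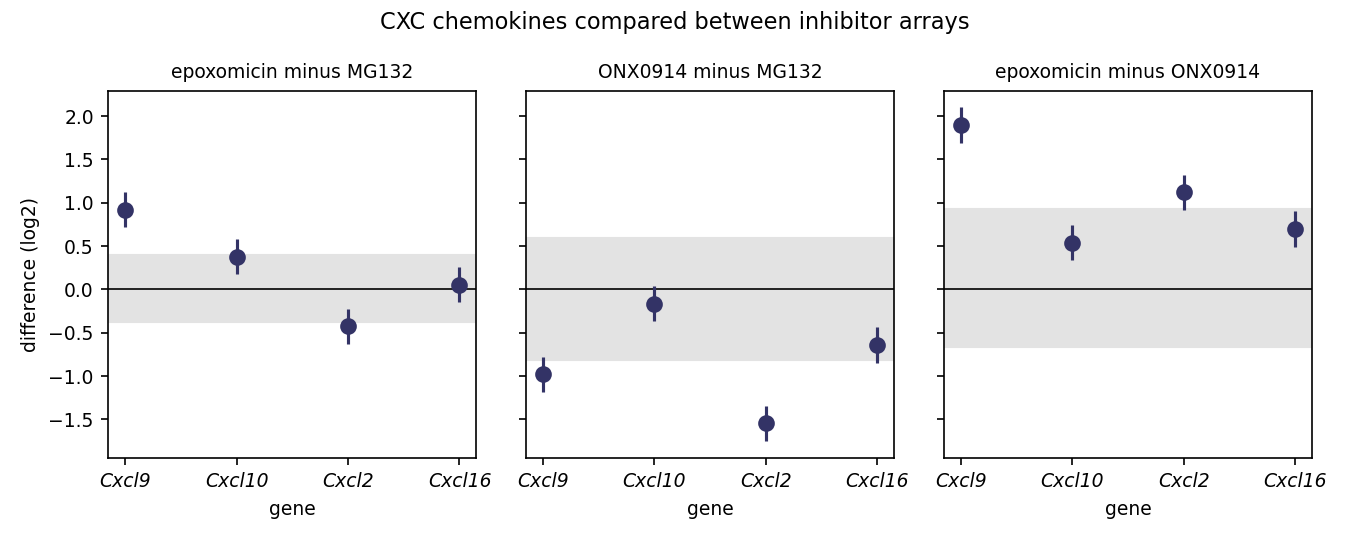
Log2 difference between inhibitor arrays for *Cxcl9*, *Cxcl10*, *Cxcl2* and *Cxcl16*, with the software's error of 1 SD and shading for the 5th to 95th percentile of all genes in that pair. *Cxcl2* is lowest for ONX0914 minus MG132 (−1.55) and below 0 for epoxomicin minus MG132 (−0.43), where *Cxcl9* is above 0 (0.92).

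The difference with ONX0914 was also expressed as a share of that with MG132, on the log2 scale. The ratio was 0.970 for *Cxcl10* and 0.587 for *Cxcl2*. Over the 1043 genes measured on all arrays and 2-fold or more from control cells in 1 direction under MG132 and under epoxomicin, the median ratio was 0.536, with quartiles of 0.377 and 0.658. *Cxcl10* was thus higher than 97.1% of these genes on this measure, while *Cxcl2* was higher than 62.4% and *Cxcl16* than 57.5%. These genes were selected by their differences with MG132 and epoxomicin and not with ONX0914. Such a selection can by itself lower their ratios. The ratio of epoxomicin to MG132 was 1.07 for *Cxcl10* and 0.886 for *Cxcl2*, beside a median of 1.07. *Cxcl9* has bounds in place of differences and was left out. All of these ratios share the DMSO array, and they are given as a description.

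Genes with the most similar set of 3 differences were identified among the other genes above background on all arrays, for each of the members measured on all arrays. Similarity was the straight-line distance over the 3 differences, computed against 12724 genes. The nearest to *Cxcl10* were *F830016B08Rik* (distance 0.980), *Rsad2* (0.992), which encodes the antiviral protein viperin, and *Batf2* (1.16), which encodes a leucine zipper factor. *Rsad2* differed from DMSO by 6.10, 6.66 and 5.31 on the log2 scale with MG132, epoxomicin and ONX0914. The nearest to *Cxcl2* were the glycine transporter gene *Slc6a9* (0.336), the cyclooxygenase gene *Ptgs2* (0.401) and the stress-induced gene *Ddit4* (0.493). *Ptgs2* differed by 3.70, 3.71 and 2.13. The nearest to *Cxcl16* were *Vps37d* (0.0796), *Tma16* (0.0830) and *Rassf1* (0.0839). Of the 3 members, *Cxcl10* had the most distant neighbors and *Cxcl16* the closest. Few genes have differences as large as those of *Cxcl10*, so these distances cannot be compared between members as a measure of similarity.

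Of the receptors of these chemokines, *Cxcr3* was lower in treated cells while its ligands were higher. The signal of *Cxcr3* was 1403 in control cells, 639 after MG132, 805 after epoxomicin and 584 after ONX0914. Its log2 difference was −0.95 ± 0.20 with MG132 and −0.82 ± 0.20 with epoxomicin, both short of 2-fold, and −1.23 ± 0.20 with ONX0914, a 2.34-fold lower signal. *Cxcr2*, which encodes the receptor of the neutrophil-attracting group, was not above background with DMSO (13.9) or ONX0914 (4.06) and had signals of 76.4 with MG132 and 151 with epoxomicin. It was at least 5.91-fold higher with MG132 and at least 10.1-fold higher with epoxomicin (2.56 and 3.34 on the log2 scale), against 0.83 and 1.34 under normexp without outlier spots. Normexp with all spots gave no difference for *Cxcr2*. *Cxcr4*, which encodes the receptor of CXCL12, had signals of 124, 262, 426 and 124 in the order DMSO, MG132, epoxomicin and ONX0914, with log2 differences of 1.26 ± 0.21, 1.76 ± 0.21 and 0.04 ± 0.21. Under normexp these were 0.05, 0.39 and −0.70 with all spots and 0.98, 1.30 and 0.23 without outlier spots. *Cxcr6*, which encodes the receptor of CXCL16, had signals of 138, 109, 121 and 140 in that order, with log2 differences of −0.15, −0.21 and 0.06.

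*Cxcr5*, which encodes the receptor of CXCL13, had faint signals of 17.2, 28.5, 45.9 and 23.1, and its log2 difference of 1.39 ± 0.37 with epoxomicin turned to −1.13 under normexp with all spots and was 0.44 without outlier spots. *Ackr1*, which encodes a scavenging receptor, was above background with ONX0914 only, at a signal of 41.6 and at least 2.91-fold higher (1.54 on the log2 scale), against 0.46 under normexp without outlier spots. Normexp with all spots gave no difference for *Ackr1*. *Cxcr1* and *Ackr3* were above background on no array. Of the 8 receptor genes, 5 could be compared with each inhibitor. The number higher was 2 for MG132, 3 for epoxomicin and 1 for ONX0914, beside 7.25%, 8.49% and 3.27% of all genes. The number lower was 0, 0 and 1, beside 3.69%, 4.41% and 1.4%. Of the other 5 CXC ligand genes, *Cxcl13* and *Cxcl15* were not above background on any array. *Cxcl17* was above background with MG132 (28.8) and epoxomicin (34.7), at least 2.22-fold and 2.33-fold higher (1.15 and 1.22 on the log2 scale), against 0.38 and 0.01 under normexp without outlier spots. With MG132 it was also short of 2-fold without scaling between arrays (0.97), and normexp with all spots gave no difference for *Cxcl17*. *Pf4*, which encodes platelet factor 4, had signals of 216358, 136604, 150826 and 185769 and log2 differences of −0.48, −0.54 and −0.18. *Ppbp*, which encodes another platelet chemokine, had log2 differences of −0.36, −0.39 and −0.17, so neither reached 2-fold.

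Among 13 genes of interferon-γ and type I interferon signaling, the higher ones encode transcription factors and the lower ones receptor chains. With MG132, 5 were at least 2-fold higher and 3 lower, beside 7.25% and 3.69% of all genes. The median log2 difference was 0.05 beside −0.02 over all genes. With epoxomicin the counts were the same, beside 8.49% and 4.41%, and the median was 0.27 beside −0.04. With ONX0914, 3 were higher and 0 lower, beside 3.27% and 1.4%, with a median of 0.07 beside −0.01. *Irf1*, *Irf7* and *Stat2* were higher with all 3 inhibitors, as were 2.02% of all genes compared. *Irf1*, which encodes a factor known to act on *Cxcl9* and *Cxcl10*, had signals of 9157 in control cells, 45798 after MG132, 64688 after epoxomicin and 55070 after ONX0914. Its differences were 2.51 ± 0.20, 2.80 ± 0.20 and 2.63 ± 0.20 on the log2 scale, so that ONX0914 lay no lower than MG132. *Stat2*, which encodes a part of the complex that binds the ISRE, differed by 2.31, 2.45 and 1.49, and *Irf7*, a factor of type I interferon induction, by 2.98, 3.13 and 1.97.

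*Irf8* and *Irf9*, which encode further factors of this family, reached 2-fold with MG132 (1.20 and 1.25 on the log2 scale) and epoxomicin (1.54 and 1.55) and not with ONX0914 (0.79 and 0.83). The interferon-γ receptor gene *Ifngr1* differed by −1.15, −1.13 and −0.69 with MG132, epoxomicin and ONX0914, and by −0.94 and −0.97 with MG132 and epoxomicin when *Hprt* was the only scaling. *Ifngr2* differed by −1.71, −2.28 and −0.76, and the type I interferon receptor gene *Ifnar1* by −1.23, −1.34 and −0.66. These 3 receptor genes were thus at least 2-fold lower with MG132 and epoxomicin only. *Ifnar2*, *Jak1*, *Jak2*, *Tyk2* and *Irf3* stayed under 2-fold with every inhibitor.

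Of 10 genes of NF-kB and AP-1 factors, the number at least 2-fold higher was 2 of 9 compared for MG132, 3 of 9 for epoxomicin and 1 of 10 for ONX0914, beside 7.25%, 8.49% and 3.27% of all genes. The number lower was 0 with each, beside 3.69%, 4.41% and 1.4% of all genes. The medians of the factor genes were 0.51, 0.48 and 0.27 on the log2 scale. *Atf3*, which encodes a stress-induced factor, was higher with all 3 inhibitors, by 4.39, 4.57 and 2.91. *Jun* differed by 1.15 and 1.46 with MG132 and epoxomicin and by 0.25 with ONX0914, and *Fos* by 0.71, 1.40 and −0.59. The epoxomicin value of *Fos* was 0.38 under normexp with all spots, and the MG132 value of *Jun* was 0.96 without scaling between arrays. The NF-kB subunit gene *Rel* was above background with ONX0914 only, at least 1.74-fold higher. *Nfkb1*, *Nfkb2*, *Rela* and *Relb* did not reach 2-fold with any inhibitor. *Rela* differed by −0.03, 0.03 and −0.07, *Relb* by 0.51, 0.48 and 0.28, and *Nfkbia*, an inhibitor and target of NF-kB, by 0.10, −0.39 and 0.47. *Nfkbiz*, which encodes a nuclear partner of NF-kB, differed by 0.81, 0.99 and 0.52.

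**Figure D4:**
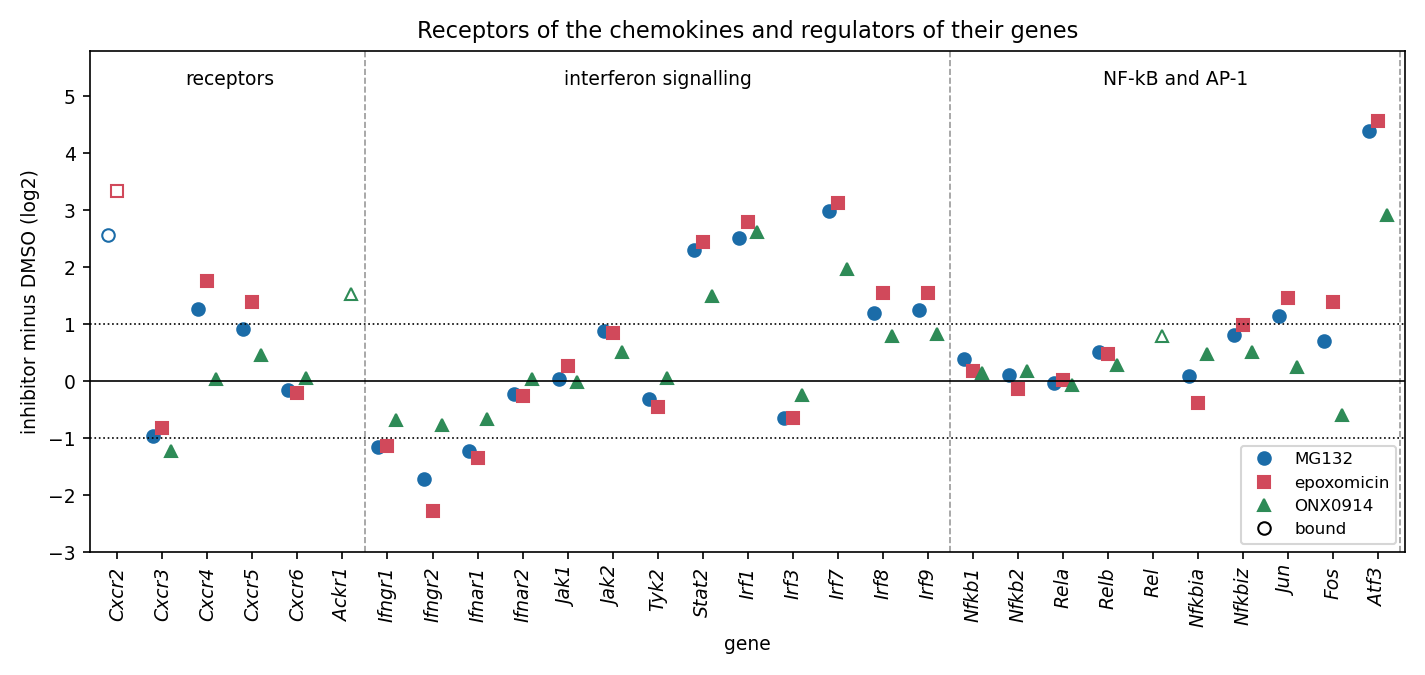
Difference from the DMSO array (log2) of receptor genes of the chemokines, of interferon signaling genes and of NF-kB and AP-1 genes with MG132, epoxomicin and ONX0914. Open symbols are bounds and dotted lines mark 2-fold. *Irf1*, *Irf7*, *Stat2* and *Atf3* lie above 1 with all inhibitors, while *Ifngr1*, *Ifngr2* and *Ifnar1* lie below −1 with MG132 and epoxomicin.

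Of 8 genes for the processing of CXC chemokines and the decay of their mRNA, 7 could be compared with each inhibitor. The number at least 2-fold higher was 1 for MG132, 2 for epoxomicin and 1 for ONX0914, beside 7.25%, 8.49% and 3.27% of all genes. The number lower was 0 with each, beside 3.69%, 4.41% and 1.4%. *Zfp36* was higher with all 3 inhibitors, as were 2.02% of all genes compared. *Zfp36*, which encodes tristetraprolin, a protein that binds AU-rich mRNA and promotes its decay, had signals of 268 in control cells, 1034 after MG132, 1591 after epoxomicin and 884 after ONX0914. Its log2 differences were 2.13, 2.55 and 1.76 with errors of 0.21, and the last of these was 0.88 under normexp with all spots. *Mmp12*, which encodes a macrophage metalloelastase that cleaves chemokines, differed by 0.98, 1.15 and 0.59, with the epoxomicin value at 0.17 and 0.79 under normexp with all spots and without outlier spots. *Zc3h12a*, which encodes the ribonuclease regnase-1, differed by −0.02, 0.34 and −0.01. *Adam10* and *Adam17*, whose products shed CXCL16 and other membrane proteins, differed by −0.56 and −0.05 with MG132, by −0.42 and 0.11 with epoxomicin and by −0.12 and −0.22 with ONX0914. The medians of the group were −0.02, 0.11 and −0.01, close to those of all genes. In 9 reference genes the medians were −0.17, −0.14 and −0.03. Among them *Gusb* differed by −1.48, −1.36 and −0.30.

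The neighbors of the chemokine genes on chromosome 5 were also examined, a choice made after the values were seen. In the RefSeq order, *Cxcl9*, *Cxcl10* and *Cxcl11* lie between *Sdad1* and *Nup54*, and *Art3* lies among them and overlaps *Cxcl10* and *Cxcl11*. *Art3*, which encodes an ADP-ribosyltransferase-like protein, differed by 0.96, 1.03 and 0.17 on the log2 scale with MG132, epoxomicin and ONX0914. *Sdad1* differed by 0.82, 0.87 and 0.31 and *Nup54* by 0.54, 0.82 and 0.31, so among these genes *Art3* with epoxomicin reached 2-fold and the rest did not. The 4 genes of the neutrophil-attracting group lie in a row with other CXC ligand genes. The order is *Cxcl5*, *Ppbp*, *Pf4*, *Cxcl3*, *Cxcl15*, *Cxcl1* and *Cxcl2*. Of this row, *Cxcl2*, *Ppbp* and *Pf4* were above background, and *Cxcl2* was the only gene 2-fold higher with any inhibitor. Beyond it lie *Mthfd2l*, *Epgn*, *Ereg* and *Areg*. *Areg*, which encodes the growth factor amphiregulin, was higher by 4.43, 4.72 and 2.57. *Mthfd2l* differed by −0.23, −0.38 and 0.01 and *Epgn* by −0.29, −0.06 and 0.04, and *Ereg* was above background on no array.

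**Figure D5:**
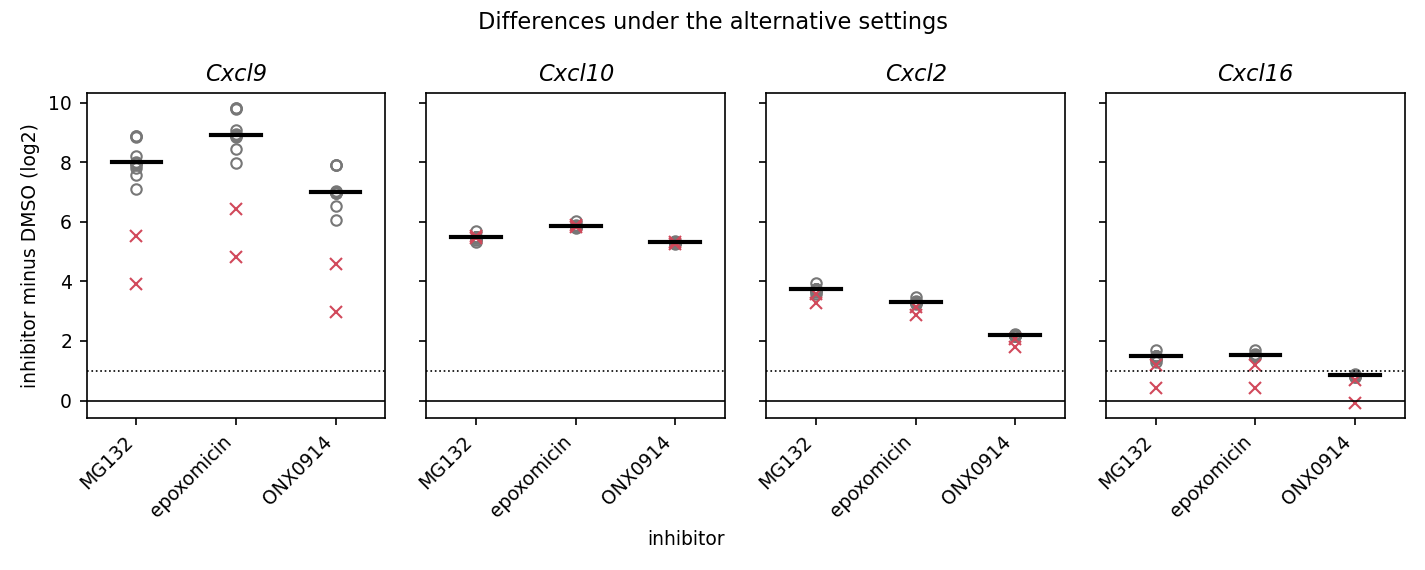
Difference from the DMSO array (log2) of *Cxcl9*, *Cxcl10*, *Cxcl2* and *Cxcl16* as reported (black bars) and under the alternative ways of processing (circles, with crosses for both normexp settings). *Cxcl10* keeps between 5.26 and 6.04 throughout, *Cxcl9* is at 3.90, 4.80 and 2.97 under normexp with all spots and *Cxcl16* at 0.41, 0.42 and −0.08.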

How the data were processed

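RNA of J774 cells was measured on 4 single-color (Cy3) arrays of 1 slide. The authors deposited the output of Feature Extraction 10.7.1.1, which gives every spot an intensity, raw and background-subtracted, with an error and detection calls. They also deposited a table of log2 values normalized with GeneSpring, which served as an alternative. The Methods name a human array, whereas the file headers describe a mouse design. Probes were therefore named through mouse RefSeq transcripts (GRCm38.p6), which named 26575 of 39429 probes and 20140 genes.

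Control spots and the 159 to 194 spots per array marked as outliers were left out of the values. Spots of a probe were averaged, and the probe with the highest mean represented a gene. Genes detected on neither array of a comparison were left out of it. Ranks and percentiles use genes measured on both arrays. No spot was saturated. The number of arrays limits the precision, and no test across arrays was possible.

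The members, gene lists and alternatives were chosen with earlier results of these data known. Named are all members, their receptors, list genes at least 2-fold from DMSO, and the 3 nearest genes of *Cxcl10*, *Cxcl2* and *Cxcl16*. Other names were chosen after values were seen. Alternatives were normexp (offset 50, on median pixel brightness) fitted to all spots or without outlier spots, quantile and other scalings, the value table, other probe choices, other detection calls and a 4-fold threshold. The calculations were tested on simulated data. R 4.3.3 with limma 3.58.1 was used for normexp, and matplotlib 3.10.9, numpy 2.4.6 and pandas 2.3.3 under Python 3.11.15 for the rest. Protein sequences were not used here, and some genes of the lists are not reported here.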

Additional observations from a re-analysis of the deposited data

How the results depend on the processing

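Over the 14 alternatives that give differences, 138 of 201 differences of the chemokine genes moved by less than 0.0868 on the log2 scale, the spread between spots of a probe for a difference, and 63 moved by more. With the 4-fold threshold added, of 180 counts of members, 161 were within 1.5 times the reported count and 19 were not. *Cxcl10* and *Cxcl2* were at least 2-fold higher with every inhibitor under all of these 14. Normexp fitted to all spots left 0 of the other CXC chemokines at least 2-fold higher with MG132 and 0 with epoxomicin, as did a 4-fold threshold, because *Cxcl16* dropped out, while normexp without outlier spots left 1 with each. With *Cxcl14*, 1 member was at least 2-fold lower with each of MG132, epoxomicin and ONX0914 under normexp with all spots, under the authors' value table, with the processed signal in place of bounds and with the software's call of positive and significant signals. Where only genes above background on all 4 arrays were compared, *Cxcl9* dropped out and 1 CXCR3 ligand was higher with each inhibitor. Of 549 values of pathway genes reported as at least 2-fold, 17 were under 2-fold or on the other side of 0, of which 6 were under normexp with all spots and 7 under normexp without outlier spots, and 1 of them changed sign, *Cxcr5* with epoxomicin, at −1.13 with all spots. The 549 leave out values for which an alternative gave no difference. Under normexp with all spots these were *Cxcr2* and *Cxcl17* with MG132 and epoxomicin and *Ackr1* with ONX0914. In that setting the median of all genes lay at −0.28, −0.30 and −0.17, against −0.02, −0.04 and −0.01 as reported. The medians also reached 0.19 with *Hprt* as the only scaling and −0.20 without scaling, both with MG132. The signal over background limits what can be said of *Cxcl1*, *Cxcl3*, *Cxcl5*, *Cxcl12* and *Cxcl14*. No paired analysis was possible because each condition holds 1 array.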
